A study of Mus musculus with 6 samples.

Results

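The phagocyte NADPH oxidase is described here through 5 of its genes in mouse liver tumours: Cybb, Cyba, Ncf1, Ncf4 and Rac2. They were taken by symbol from a table of 52459 rows of read counts, all 5 had a row, and all 5 were among the 14130 genes with enough reads to be tested. The tumours had the genotype MYC-LAP-tTA, in which the LAP promoter drives the tetracycline transactivator tTA in liver cells and tTA keeps a MYC transgene on. There were 3 libraries of tumours with MYC active (MYC_On) and 3 of tumours after 4 days of MYC inactivation (MYC_Off), so that both groups carried the transgene and differed in its state. RNA came from whole tumours, which hold tumour cells together with vessels, stroma and leukocytes, and in such tissue fewer cells of a type and less RNA per cell cannot be told apart. Whether each library is from its own animal is not stated in the labels, and the p-values therefore speak of the spread among these libraries, part of which may be technical.

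The oxidase is the enzyme with which neutrophils, monocytes and macrophages make superoxide, the source of the oxidative burst against microbes. Its membrane core, cytochrome b558, pairs gp91phox (Cybb), which carries the electrons from NADPH to oxygen, with p22phox (Cyba), which stabilises it. On stimulation p47phox (Ncf1) and p40phox (Ncf4) move from the cytosol to that core together with a Rac GTPase, which in leukocytes is largely Rac2. p22phox also serves other NADPH oxidases, among them Nox4, and is made in many cell types. In the liver the resident macrophages, the Kupffer cells, are a main site of the phagocyte enzyme.

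The sequences just upstream of Cybb, Ncf1 and Cyba are shown because these 3 genes span the responses measured here: Cybb and Ncf1 were higher in MYC_Off, while Cyba did not pass the test. Each is the RefSeq promoter window on GRCm38.p6, from 250 bases before to 50 bases after the annotated start, read 5′ to 3′ on the gene's own minus strand. Capitals mark matches, on either strand, to the motifs searched. The windows are chrX:9469275-9469574 for Cybb, chr5:134229576-134229875 for Ncf1 and chr8:122432891-122433190 for Cyba.
Cybb: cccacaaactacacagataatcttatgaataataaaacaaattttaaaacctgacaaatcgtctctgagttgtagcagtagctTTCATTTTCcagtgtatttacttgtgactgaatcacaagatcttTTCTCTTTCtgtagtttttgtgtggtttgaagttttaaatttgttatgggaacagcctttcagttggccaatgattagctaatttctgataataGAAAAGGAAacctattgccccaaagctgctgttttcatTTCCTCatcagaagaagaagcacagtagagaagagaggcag
Ncf1: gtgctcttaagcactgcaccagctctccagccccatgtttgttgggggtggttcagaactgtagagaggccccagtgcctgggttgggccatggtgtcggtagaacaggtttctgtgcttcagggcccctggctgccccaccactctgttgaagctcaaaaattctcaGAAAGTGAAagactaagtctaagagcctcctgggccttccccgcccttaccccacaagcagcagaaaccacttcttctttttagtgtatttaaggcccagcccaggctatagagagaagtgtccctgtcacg
Cyba: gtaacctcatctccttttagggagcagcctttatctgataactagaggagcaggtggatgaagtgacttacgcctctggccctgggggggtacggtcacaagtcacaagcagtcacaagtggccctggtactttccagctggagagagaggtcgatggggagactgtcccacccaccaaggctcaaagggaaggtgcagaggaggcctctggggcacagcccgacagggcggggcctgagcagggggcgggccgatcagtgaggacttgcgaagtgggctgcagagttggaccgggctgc

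The motif GAAANNGAA, of the interferon response type, occurred at 3 places before the Cybb start, from -167 to -159 and from -123 to -115 on the opposite strand and from -29 to -21 on the gene's strand. Ncf1 had 1 such match, from -82 to -74. Of 32851 promoter windows of the same length, 8.56% held this motif at least once. The core bound by PU.1 and other ETS factors, written GAGGAA, occurred once in Cybb, at bases 10 to 15 after the start on the opposite strand, and 28.3% of all windows held it. Neither the E-box CACGTG (7.15% of windows) nor the TATA box TATAAA (13.6%) was found in the 3 windows, no matches overlapped, and the Cyba window held none of the 4 motifs. These matches describe letters in a window and are not binding sites. The windows also differed in composition: Cyba had 60.7% G and C with 9 CpG dinucleotides, Ncf1 had 54.0% with 3, and Cybb had 35.3% with 1, against medians of 52.7% and 7 over all windows.

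Libraries held 16292718 to 19265623 reads assigned to genes. Myc ranged from 779 to 1018 CPM (read counts scaled to a common library total, after TMM scaling) in MYC_On. It stood at 74.8, 10.2 and 18.7 CPM in MYC_Off replicates 1, 2 and 3, the direction the labels give, and was highest of these in replicate 1. Counts per gene symbol do not tell reads of the transgene from reads of the animal's own Myc. Alb, the liver's main secreted protein, was present in all 6 libraries, at 828 to 2646 CPM in MYC_On and 59070 to 203600 CPM in MYC_Off. In all, 52.7% of the tested genes passed an adjusted p of 0.05 (Benjamini-Hochberg adjustment of the quasi-likelihood test in edgeR), with 29.9% higher and 22.8% lower in MYC_Off, so a single gene that passes is common here.

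Among the oxidase genes, 4 of 5 were higher in MYC_Off and 0 were lower. Ncf4 and Ncf1 rose most, followed by Cybb and Rac2, while Cyba was not called. The median log2 fold change (MYC_Off minus MYC_On) of the 5 was 3.06, beside 0.18 over all tested genes. In those 4 genes every MYC_Off library stood above every MYC_On library, a separation that 33.2% of tested genes also showed.

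**Figure D1:**
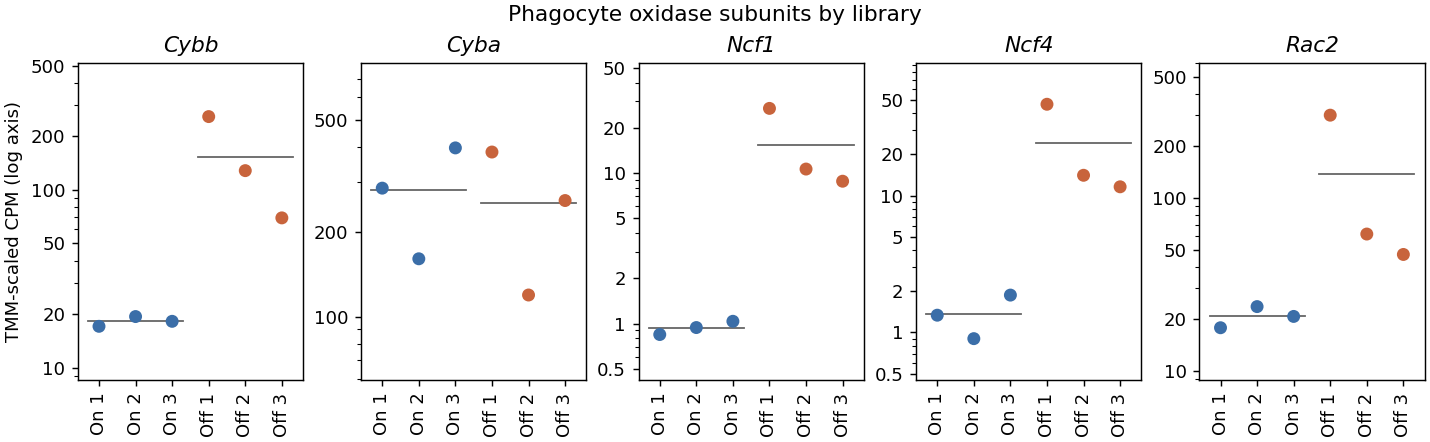
TMM-scaled CPM of the 5 oxidase genes in each library, on a log axis, with 1 point per library and a line at each group's mean (MYC_On blue, MYC_Off orange). Cybb, Ncf1, Ncf4 and Rac2 have all MYC_Off points above all MYC_On points, with MYC_Off 1 the highest, while the Cyba groups overlap.

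Cybb, the catalytic subunit (chromosome X, 9435252 to 9487771, minus strand, mm10), had 17.1, 19.4 and 18.2 CPM in MYC_On replicates 1 to 3. It had 258, 128 and 69.5 CPM in MYC_Off replicates 1 to 3. The MYC_On libraries lay close together, and the MYC_Off libraries spread widely but all stood higher. Means were 18.2 ± 1.15 CPM in MYC_On and 152 ± 96.6 CPM in MYC_Off (SD, n = 3). The log2 fold change was 3.06 (SE 0.48, 95% interval 1.95 to 4.18), or 8.35-fold, with an adjusted p of 0.0025 in the same edgeR test, which is meant by every adjusted p below unless another test is named. The RefSeq start used for the promoter window lies inside the longer span that GENCODE gives this gene.

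Cyba, the membrane partner of Cybb (chromosome 8, 122424776 to 122432930, minus strand), had 286, 160 and 397 CPM in MYC_On and 384, 119 and 258 CPM in MYC_Off, in replicate order. The highest and the lowest of the 6 values belonged to different groups, and the groups overlapped. Its mean was 281 ± 118 CPM in MYC_On and 254 ± 132 CPM in MYC_Off (SD, n = 3), and its log2 fold change was -0.15 (SE 0.50, adjusted p = 0.82). The 95% interval, -1.32 to 1.03, includes changes of 2-fold in either direction. With 1559 to 8050 reads per library, Cyba was the most deeply counted of the 5 genes over MYC_On and MYC_Off together. The sign of its value was positive without MYC_On replicate 3 (0.13) and without MYC_Off replicate 2 (0.13), and negative without MYC_Off replicate 1 (-0.73), with the test not passed in any of these.

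Of the cytosolic subunits, Ncf1 (p47phox, the organiser that binds p22phox; chromosome 5, 134220053 to 134229625, minus strand) was the least abundant in MYC_On. It had 19, 23 and 21 reads there, or 0.846, 0.941 and 1.04 CPM, and 490, 139 and 115 reads in MYC_Off, or 26.9, 10.6 and 8.83 CPM. Every MYC_Off library was several times above the highest MYC_On library. Ncf1 rose, with means of 0.941 ± 0.0947 and 15.5 ± 9.97 CPM (SD, n = 3) and a log2 fold change of 4.03 (SE 0.54, 95% interval 2.76 to 5.31, adjusted p = 0.00161). Its exons overlap those of Gtf2ird2 on the other strand over 408 bases, and the strand setting of the counting is not given in the sources used here, so some reads of the 2 genes could not be told apart. Gtf2ird2 itself ranged from 5.92 to 8.76 CPM in MYC_On and from 5.92 to 9.11 CPM in MYC_Off, so that its groups overlapped.

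Ncf4 (p40phox, which binds a membrane phosphoinositide; chromosome 15, 78244801 to 78262580, plus strand) followed Ncf1 closely. It had 1.34, 0.90 and 1.87 CPM in MYC_On and 46.5, 14.1 and 11.6 CPM in MYC_Off, from 22 to 38 and from 151 to 847 reads. Means were 1.37 ± 0.488 and 24.1 ± 19.5 CPM (SD, n = 3), and the log2 fold change was 4.14 (SE 0.66, 95% interval 2.59 to 5.69, adjusted p = 0.00275). MYC_Off replicate 1 held most of that mean, and the other MYC_Off libraries were close to each other.

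Rac2, the leukocyte Rac GTPase (chromosome 15, 78559167 to 78572783, minus strand), had 17.7, 23.5 and 20.6 CPM in MYC_On and 300.1, 61.7 and 47.0 CPM in MYC_Off. All MYC_Off values were higher, but replicate 1 was several times above the other 2. Means were 20.6 ± 2.88 and 136 ± 142 CPM (SD, n = 3), and the log2 fold change was 2.73 (SE 0.71, 95% interval 1.06 to 4.39, adjusted p = 0.016). Of the 4 calls, that of Rac2 depended most on single libraries: without MYC_Off replicate 1 its log2 fold change was 1.25 (adjusted p = 0.00447), and leaving out MYC_On replicate 1, 2 or 3 gave adjusted p of 0.0619, 0.0627 and 0.0639.

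MYC_Off replicate 1 was the highest MYC_Off library for all 5 genes. Without it the log2 fold changes were 2.3 for Cybb, 3.22 for Ncf1 and 3.08 for Ncf4, and these 3 remained called (adjusted p of 0.00106, 0.000739 and 0.00135). The 4 called genes thus kept their direction with MYC_Off replicates 2 and 3 alone, at smaller values. Over all alternatives run, which covered scaling, filters, tests, thresholds and left-out libraries, Cybb ranged from 2.3 to 3.35, Ncf1 from 3.22 to 4.26 and Ncf4 from 3.08 to 4.42.

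Of 6 Rac-type GTPases listed, Rac2 included, 3 were higher and 1 was lower in MYC_Off, and 2 did not pass, beside 29.9% higher and 22.8% lower among all tested genes, and nothing is read from so short a list. Rac1, which most cells make, had 161 to 189 CPM in MYC_On and 177 to 271 CPM in MYC_Off, with a log2 fold change of 0.28 (adjusted p = 0.402) that was -0.40 with library size scaling only and -0.08 without MYC_Off replicate 1. Rac3, known mainly from the nervous system, had 15.6, 17.1 and 29.6 CPM in MYC_On and 3.52, 1.38 and 0.845 CPM in MYC_Off, a fall of 3.41 on the log2 scale (SE 0.59, adjusted p = 0.00359). Rhoh, an atypical GTPase of blood cells, changed by 3.13 (adjusted p = 0.0101) and Rhog, an activator upstream of Rac, by 1.80 (adjusted p = 0.012). Without MYC_Off replicate 1 they stood at 1.99 and 0.999, and Rac3 at -4.36. The Rhog call was lost without MYC_On replicate 1 or replicate 2, with library size scaling only (1.20, adjusted p = 0.0939) and against a minimum change of 2-fold (adjusted p = 0.0605). Only 1 member of this list was still called higher without MYC_On replicate 1 or without MYC_On replicate 2. Exons of Rac1 overlap those of Daglb on the other strand over 2309 bases.

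Among 7 partners of the enzyme described here, 3 were higher in MYC_Off, 0 lower and 4 not called, beside 29.9% higher among all tested genes. The 3 were Arhgdib, the GDP dissociation inhibitor of leukocytes, which holds Rac in the cytosol (log2 fold change 3.76, SE 0.78, adjusted p = 0.00694), Nrros, an endoplasmic reticulum protein that limits the amount of gp91phox (2.23, SE 0.41, adjusted p = 0.0043), and Hvcn1, the proton channel that balances the charge moved by the oxidase (2.56, SE 0.79, adjusted p = 0.0295). Arhgdib had 6.51 to 7.98 CPM in MYC_On and 229, 42.2 and 32.9 CPM in MYC_Off. Its broadly made relative Arhgdia had 626 to 734 CPM and 698, 257 and 405 CPM (log2 fold change -0.56, adjusted p = 0.282), passing as lower (-1.16, adjusted p = 0.0143) only without MYC_Off replicate 1. Neither Rap1a, a GTPase that associates with cytochrome b558 (0.42, adjusted p = 0.3), nor BC017643, the chaperone of cytochrome b558 also called Eros (0.63, adjusted p = 0.173), passed. The count of 3 fell to 2 without any 1 MYC_On replicate, and without MYC_Off replicate 1 Arhgdib was 2.18, Nrros 1.57 and Hvcn1 0.97, the last not called. The Hvcn1 call was also lost with library size scaling only (2.06, adjusted p = 0.0827) or that size without the 20 most abundant genes (2.34, adjusted p = 0.0565). It was lost as well by limma-voom (adjusted p = 0.0689), with a replicate block (adjusted p = 0.0719) and against a minimum change of 2-fold (adjusted p = 0.0784).

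**Figure D2:**
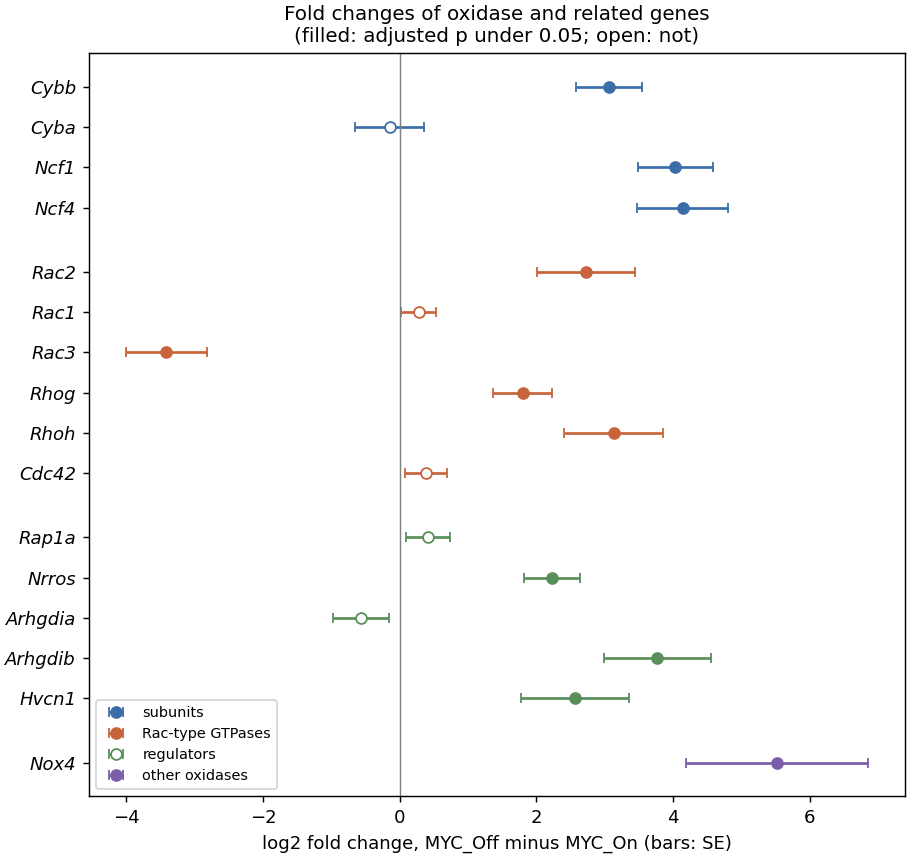
Log2 fold change (MYC_Off minus MYC_On) with its SE for the oxidase subunits, Rac-type GTPases, regulators and Nox4; filled points passed an adjusted p of 0.05 and open points did not. Ncf4 (4.14) and Ncf1 (4.03) lie furthest right among the subunits, Cyba (-0.15) lies at the zero line, and Rac3 (-3.41) is the single gene far to the left.

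Levels of different genes can be compared only per length of exon. On that scale Cyba was far the most abundant oxidase gene in MYC_On, at 271 ± 114 CPM per kilobase (SD, n = 3), followed by Rac1 (39.1 ± 3.09), Rac3 (16.1 ± 5.95), Rac2 (6.64 ± 0.929), Cybb (3.13 ± 0.198), Ncf4 (0.678 ± 0.241) and Ncf1 (0.257 ± 0.0259). No 2 neighbours in this order overlapped between the MYC_On libraries. In MYC_Off, Cyba was again the highest (244 ± 127), while Rac2 (43.9 ± 45.8), Rac1 (47.3 ± 11.2) and Cybb (26.2 ± 16.6) overlapped. Ncf4 (11.9 ± 9.65) and Ncf1 (4.22 ± 2.72) followed, each overlapping the gene before it.

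**Figure D3:**
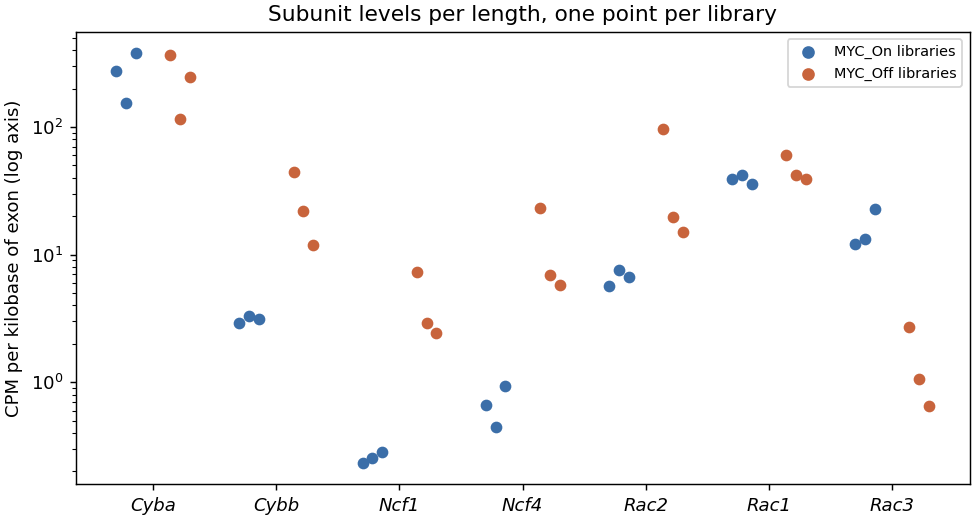
CPM per kilobase of joined exons for the oxidase subunits and Rac GTPases, on a log axis, with 1 point per library in replicate order (MYC_On blue, MYC_Off orange). Cyba lies between 115 and 382 in both groups, whereas Cybb moves from about 3 to between 11.97 and 44.46.

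The transcripts of the cytochrome b558 partners therefore stood in different proportion in the 2 groups. Per kilobase, Cyba transcript exceeded Cybb transcript 93.6, 46.3 and 122-fold in MYC_On and 8.31, 5.20 and 20.8-fold in MYC_Off. No MYC_Off ratio reached the lowest MYC_On ratio, and the log2 ratio changed by -3.07 (exact permutation test, two-sided, p = 0.1, the smallest that 3 against 3 libraries can give; also 0.1 when adjusted over 4 pairs of genes). With the length of the longest coding transcript in place of all exons, the ratios were 107, 52.9 and 139 in MYC_On and 9.49, 5.94 and 23.7 in MYC_Off. The length used sets the size of the ratio and, by construction, leaves its change between groups as it is.

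Rac2 transcript was 0.145, 0.18 and 0.185 times that of Rac1 per kilobase in MYC_On and 1.61, 0.47 and 0.384 times in MYC_Off. Rac2 exceeded Rac1 in MYC_Off replicate 1 alone. The log2 ratio changed by 1.97 (exact permutation p = 0.1, two-sided, the same when adjusted), and by 1.33 without that library. Relative to Cybb, both Ncf1 (log2 change of the ratio 1.00) and Ncf4 (1.05) were higher in every MYC_Off library than in any MYC_On library (exact permutation p = 0.1 each, two-sided).

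Because phagocytes are the main cells with this enzyme, the same genes were set against markers of macrophages. All 12 macrophage markers on the list were higher in MYC_Off, beside 29.9% of all tested genes, with a median of 2.53 on the log2 scale. That count was 6 without MYC_On replicate 1 or replicate 2, and also 6 with the replicate number as a block in the fit. Their summed level was 709 to 1321 CPM in MYC_On and 9598, 3459 and 2609 CPM in MYC_Off. The MYC_Off libraries stood in the same order for this sum as for Cybb, Ncf1, Ncf4 and Rac2. That was not particular to macrophages: the 5 fibroblast and stellate cell markers, all higher (median 3.07), summed to 105 to 123 CPM in MYC_On and 1895, 1044 and 743 CPM in MYC_Off, and red blood cell markers to 31.4 to 90.7 and 2280, 1633 and 665 CPM, in the same order. Endothelial markers summed to 49.0 to 57.1 CPM in MYC_On and 536, 267 and 307 CPM in MYC_Off. The part of any of these cell types in the subunit changes was not tested.

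The difference between a gene's log2 level and the mean log2 level of those markers was then compared over libraries. For Ncf1 it was -4.89, -5.23 and -5.31 in MYC_On and -3.77, -3.61 and -3.56 in MYC_Off, 1.495 higher on average. Ncf4 stood 1.58 higher and Cybb 0.63 higher by the same measure, again with no overlap of the groups. Cyba stood at 3.34, 2.03 and 3.13 in MYC_On and 0.06, -0.14 and 1.29 in MYC_Off, a difference of -2.43. For each of these 4 genes the exact permutation p was 0.1 (two-sided), the smallest that the design allows, and 0.125 adjusted over the 5 genes.

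Rac2 stood at -0.67, -0.74 and -1.13 against the macrophage markers in MYC_On and at -0.30, -1.09 and -1.17 in MYC_Off, so that the groups overlapped. Its mean difference was -0.01 (exact permutation p = 1), a value whose sign varied between -0.28 and 0.15 as single libraries were left out. With 3 libraries per group this does not show that Rac2 and the markers changed equally. Set against 10 general leukocyte markers instead, the differences were 0.47 for Cybb, where the groups then overlapped (exact permutation p = 0.2), -2.59 for Cyba, 1.34 for Ncf1, 1.42 for Ncf4 and -0.16 for Rac2. A mean over markers depends on which markers are listed, and Cd68, Lyz2 and the other markers also differ in level between kinds of macrophage.

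**Figure D4:**
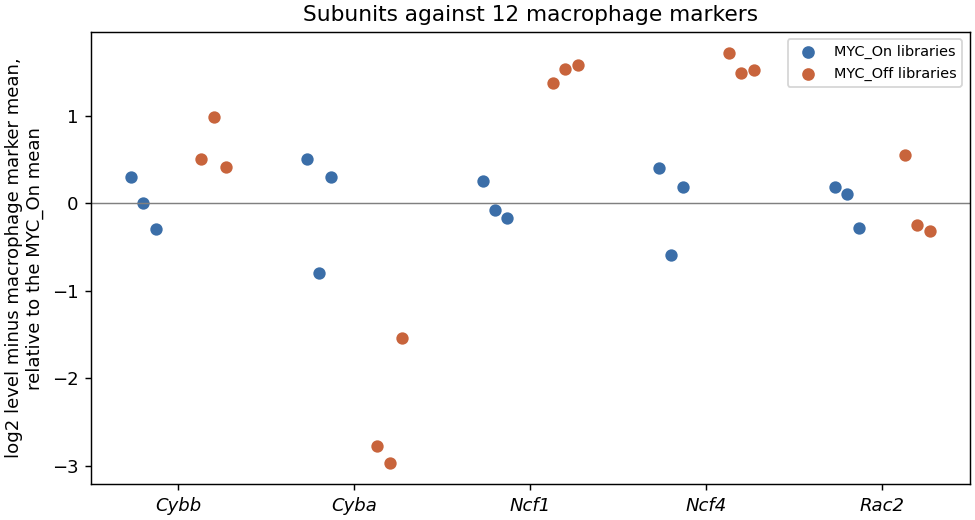
Log2 level of each oxidase gene minus the mean log2 level of 12 macrophage markers, by library and relative to the MYC_On mean (MYC_On blue, MYC_Off orange, replicates in order). Ncf1 and Ncf4 lie about 1.5 above the MYC_On mean in all MYC_Off libraries, Cyba lies below it in all of them, and the Rac2 groups overlap.

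Markers of other leukocytes that hold the oxidase were counted in the same libraries, and their part in the subunit changes was not tested. The summed level of the 12 neutrophil markers was 3.83 to 5.16 CPM in MYC_On and 206, 180 and 299 CPM in MYC_Off. S100a8 had 0.123 to 0.624 CPM in MYC_On and 31.3 to 40.1 CPM in MYC_Off, while Ly6g was at 0 reads in MYC_On replicates 2 and 3 and at most 1.31 CPM elsewhere. MYC_Off replicate 3 was the highest library for the neutrophil sum but the lowest MYC_Off library for Cybb, Ncf1, Ncf4 and Rac2. The 5 monocyte markers summed to 22.04 to 37.7 CPM in MYC_On and to 207, 46.5 and 66.9 CPM in MYC_Off. Most of the MYC_On sum was Plac8, which did not pass (log2 fold change 0.63, adjusted p = 0.269). Plac8 had 20.1 to 35.2 CPM in MYC_On and 75.8, 26.4 and 29.7 CPM in MYC_Off. The median log2 difference of the 5 markers from the MYC_On mean was 5.7, 2.8 and 2.3 in MYC_Off replicates 1 to 3.

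The 7 Kupffer cell markers divided the MYC_Off libraries. Their sum was 248 to 420 CPM in MYC_On, 3300 and 1589 CPM in MYC_Off replicates 1 and 2, and 67.7 CPM in MYC_Off replicate 3. Most of the MYC_On sum was Cd5l, at 221 to 384 CPM there and 49.2 CPM in MYC_Off replicate 3. In that library Clec4f, a lectin that defines these cells, was at 0 and Vsig4 at 0.461 CPM. Both were already low in MYC_On, at 0.164 to 1.69 and 0.123 to 2.02 CPM. Clec1b lay within its MYC_On range in MYC_Off replicate 3, Folr2 above it, and Timd4 and Marco below it. Cybb, at 69.5 CPM, was well above the MYC_On libraries in MYC_Off replicate 3, and so were Ncf1, Ncf4 and Rac2. The part of Kupffer cells in the subunit changes was not tested.

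Lymphocytes make Rac2 as well as phagocytes do. T and NK cell markers summed to 3.21 to 4.88 CPM in MYC_On and to 220, 25.9 and 4.46 CPM in MYC_Off, and B cell markers to 7.62 to 10.01 CPM in MYC_On and 161, 30.2 and 20.9 CPM in MYC_Off. Both were highest in MYC_Off replicate 1, as Rac2 was (300.1 CPM). The macrophage, monocyte, fibroblast, endothelial and red blood cell sums were also highest there, so this was not particular to lymphocytes. In MYC_Off replicate 3 Rac2 (47.0 CPM) and the B cell sum stood above every MYC_On library, while the T and NK sum lay within the MYC_On range. The part of lymphocytes in the Rac2 change was not tested. Dendritic cell markers summed to 4.10 to 6.92 CPM in MYC_On and 93.9, 24.9 and 29.96 CPM in MYC_Off. No count of called markers is given for neutrophils, monocytes, Kupffer cells, lymphocytes or dendritic cells, because many of these markers had few reads in MYC_On and entered the test through their MYC_Off reads.

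**Figure D5:**
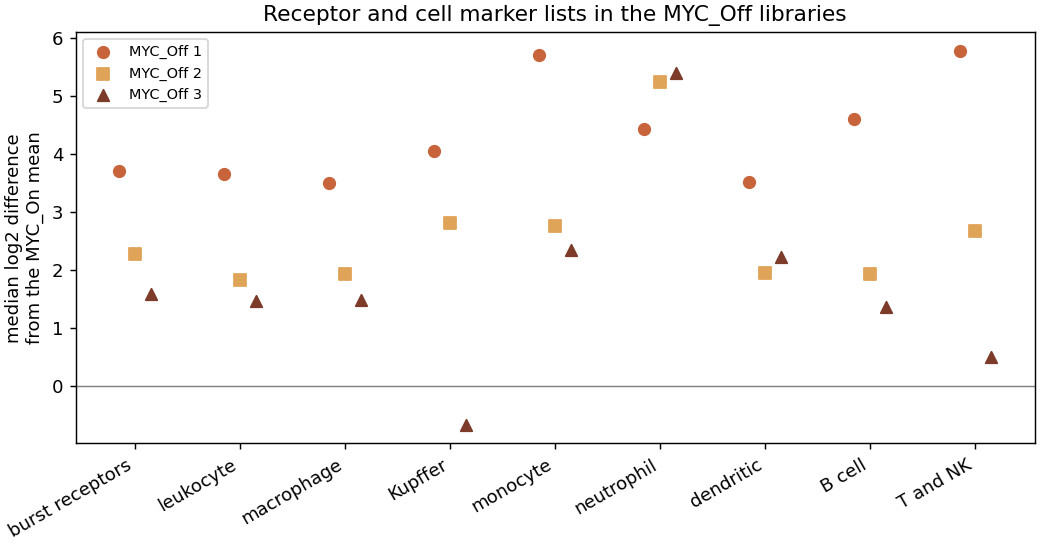
Median log2 difference from the MYC_On mean for burst receptors and leukocyte marker lists in the 3 MYC_Off libraries, with 1 symbol per library. MYC_Off 1 is highest for most lists, MYC_Off 3 is highest for neutrophil markers (5.39), and Kupffer markers in MYC_Off 3 lie below the MYC_On mean (-0.67).

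Receptors and adaptors that trigger the oxidative burst passed as higher in 11 of 11, beside 29.9% of all tested genes, with a median log2 fold change of 2.82. Of these, Fpr2 had 16, 13 and 6 reads in MYC_On and met the read filter only with its MYC_Off reads (135, 33 and 13). Its direction therefore follows in part from the filter. The groups overlapped for Fpr1, at 0.845 CPM in MYC_Off replicate 3 and 1.19 CPM in MYC_On replicate 2. C5ar1, the receptor of the complement fragment C5a, had 2.74 to 3.55 CPM in MYC_On and 52.6, 15.9 and 19.1 CPM in MYC_Off (log2 fold change 3.27, SE 0.52, adjusted p = 0.00272). Fcgr3, an activating receptor for immunoglobulin G, had 9.67 to 14.6 CPM in MYC_On and 208, 67.4 and 63.2 CPM in MYC_Off (3.19, adjusted p = 0.00301). Without MYC_Off replicate 1 these stood at 2.38 and 2.25. The count was 6 with library size scaling only, and 5, 5 and 7 without MYC_On replicates 1, 2 and 3.

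Of 17 kinases, exchange factors and GTPase regulators that act on oxidase assembly, 12 were higher and 1 lower, with a median of 2.26. Among all tested genes 29.9% were higher and 22.8% lower. Pik3r5, the regulatory subunit of the leukocyte kinase PI3Kγ, changed by 3.25 (SE 0.70, adjusted p = 0.00781), from 2.43 ± 0.772 to 23.1 ± 21.6 CPM (SD, n = 3), and by 1.98 without MYC_Off replicate 1. Pak2, a kinase that Rac activates and made in most tissues, had 149 to 201 CPM in MYC_On and 54.4 to 93.6 CPM in MYC_Off, a fall of 1.28 on the log2 scale (SE 0.28, adjusted p = 0.0079) that did not pass against a minimum change of 2-fold (adjusted p = 0.154). Of the protein kinase C genes that phosphorylate p47phox, Prkcb changed by 2.65 (adjusted p = 0.0101), while Prkcd (1.04, adjusted p = 0.0975) and Prkca (-1.03, adjusted p = 0.057) did not pass. The higher count was 5, 6 and 5 without MYC_On replicates 1, 2 and 3, and 5 with library size scaling only, where 4 were lower.

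Transcription factors known to act on Cybb, Ncf1 or their family were higher in 3 of 4 tested, beside 29.9% of all tested genes. Nothing is read from so short a list. Spi1 (PU.1, the ETS factor of myeloid cells) had 5.75, 7.74 and 10.1 CPM in MYC_On and 129, 33.6 and 30.2 CPM in MYC_Off (log2 fold change 3.03, SE 0.63, adjusted p = 0.00667). Irf8, which works with PU.1, changed by 2.67 (adjusted p = 0.013), a call lost without MYC_On replicate 1 or replicate 3. Without MYC_Off replicate 1 Spi1 stood at 1.87 and Irf8 at 1.48. Irf1, an interferon-induced factor, changed by 1.72 (SE 0.21, adjusted p = 0.00124), with 14.8 to 17.2 CPM in MYC_On and 48.3 to 61.2 CPM in MYC_Off. Elf1 did not pass (0.62, adjusted p = 0.0676).

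Of the other NADPH oxidases and their partners only Nox4 and Duox2, of 9 listed, were tested. Both had few reads in MYC_On and entered the test mainly through MYC_Off, so their direction follows in part from the filter. Nox4, which also pairs with p22phox, had 0.980, 0.0819 and 0.247 CPM in MYC_On and 9.01, 48.8 and 2.61 CPM in MYC_Off (log2 fold change 5.51, SE 1.33, adjusted p = 0.012). The highest value was in MYC_Off replicate 2, the library with the lowest Cyba. The value was 3.69 without MYC_Off replicate 2 and 6.86 without MYC_On replicate 1. The Nox4 call was lost without MYC_On replicate 2 (4.96) or replicate 3 (5.19), and with no filter on low counts (5.41, adjusted p = 0.0524). Duox2, an oxidase of epithelia, was counted 47 times in MYC_Off as a whole and once in MYC_On (12, 15 and 20 reads in MYC_Off replicates 1 to 3). After scaling that is a ratio of 71.3, whose exact 95% interval for counting error alone runs from 12.2 to 2870. Nox1 had 1 read in MYC_On and 2 in MYC_Off, and Nox3 had 0 in both.

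Of 7 enzymes that supply NADPH, 3 were higher and 2 lower, with a median log2 fold change of 0.38, beside 29.9% higher and 22.8% lower among all tested genes, and this is not read as a result about the list. H6pd (2.78, adjusted p = 0.00286), Me1 (3.52, adjusted p = 0.00509) and Idh1 (1.78, adjusted p = 0.0107) were higher. Lower were Tkt (-1.19, adjusted p = 0.0129, or 0.248 against a minimum change of 2-fold) and G6pdx, the entry enzyme of the pentose phosphate pathway (-1.55, adjusted p = 0.0457). G6pdx was no longer called when any 1 library except MYC_Off replicate 1 was left out, at -2.65 without that replicate, and had 123 to 129 CPM in MYC_On and 84.3, 25.5 and 18.7 CPM in MYC_Off. For Idh1 the call was lost without MYC_On replicate 2 or replicate 3.

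Genes that remove superoxide and peroxide were higher in 6 of 15 and lower in 0, beside 29.9% and 22.8% of all tested genes, with a median of 0.60. The count was 3 without MYC_On replicate 2, and it is not read as a result about the list. Prdx5 (2.02, adjusted p = 0.00237), a peroxiredoxin, Sod3 (3.43, adjusted p = 0.00293), the extracellular superoxide dismutase, and Gpx1 (2.99, adjusted p = 0.00293), a glutathione peroxidase, had the smallest adjusted p. With library size scaling only, 4 of this list were lower. The 6 listed hepatocyte markers were all higher too, summing to 4799 to 9214 CPM in MYC_On and 95720 to 263400 CPM in MYC_Off. The part of hepatocytes in the changes of these enzymes was not tested.

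The 5 genes did not share 1 profile. The likeness of 2 genes was taken as the root mean square difference of their centred log2 levels over the 6 libraries, so that 0 means the same profile. Ncf1 and Ncf4 were the closest pair (0.29), Cybb was 0.47 from Ncf1 and 0.49 from Rac2, and Cyba was 1.44 to 2.06 from the other 4. The search covered 9422 genes at 10 CPM or more on average. Those nearest to the mean profile of the 5 were Tlr13 (0.095), an endosomal receptor for bacterial RNA, Mef2c (0.145), Clec4a3 (0.153), Arpc1b (0.161), a subunit of the actin-nucleating Arp2/3 complex in leukocytes, and Pak1 (0.179). The nearest gene to each was Pear1 for Cybb (0.091), Ifngr2, a chain of the interferon gamma receptor, for Cyba (0.301), Rgs10 for Ncf1 (0.147), Tnfaip8l2 for Ncf4 (0.182) and Il2rg, the common chain of several cytokine receptors, for Rac2 (0.12). These measures rest on 6 libraries that share their depth and tissue makeup and are given as a description.

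Ncf4 and Rac2 lie near each other on chromosome 15, on opposite strands with 296586 bases and 10 protein-coding genes between them. Of those 10, 8 were tested, 5 were higher and 0 lower, beside 29.9% higher and 22.8% lower among all tested genes. The neighbour of Ncf4 on that side, Csf2rb2 (4.51, adjusted p = 0.00141), and the next gene, Csf2rb (3.72, adjusted p = 0.0028), encode receptor chains for myeloid growth factors and are close paralogs whose reads could be divided between them. The other 3, named after their values were seen, were Tmprss6 (6.61), a hepatocyte protease, Il2rb (3.37), whose groups overlapped and whose call was lost in most alternatives, including without MYC_Off replicate 1 (1.14), and C1qtnf6 (2.19, or 1.42 without MYC_Off replicate 3). On the far side of Rac2, Cyth4, an exchange factor of leukocytes, changed by 2.64 (adjusted p = 0.00833). Without MYC_Off replicate 1 Csf2rb2 stood at 3.65, Csf2rb at 2.74 and Cyth4 at 1.55.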

How the data were processed

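RNA of 6 mouse liver tumour samples was extracted with a column kit and sequenced by the provider's protocol, per the labels' protocols. The authors deposited whole-number read counts per gene symbol, not normalized. Trimmomatic, STAR, Picard, featureCounts and DESeq2, with build mm10, are named in the submitters' processing notes. Not given in the sources used here are the gene annotation, the strand setting and what was done with multiply matching reads. Groups and replicate numbers came from sample titles.

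MYC_Off was compared with MYC_On over all genes in edgeR 4.0.16 (R 4.3.3): genes were filtered with filterByExpr (minimum count 10, total 15) and scaled by TMM, the quasi-likelihood fit was robust, and p-values had Benjamini-Hochberg adjustment over 14130 genes with a threshold of 0.05. SEs came from the fold change and F statistic, and 95% intervals from the fit's t quantile. Log2 levels used a prior count of 2. Subunit ratios and levels against markers were compared by exact permutation. Coordinates and exon lengths came from GENCODE mouse release 21 on mm10, which matched 91.7% of symbols. Promoters came from RefSeq (GRCm38.p6), where 3 of the genes had an entry. Chi-square per degree of freedom between libraries of a group was at least 29.1, so none was a repeat. The code was checked on simulated counts.

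Named genes are the 5 subunits, Myc, listed partners, the 2 members of each other list with the smallest adjusted p (all passing members where 5 or fewer passed), the nearest profiles, and chromosome 15 neighbours. Genes named beyond this rule (Prkcb, Prkcd, Prkca, Elf1, Gpx1, Nox1, Nox3, Ly6g, Cd68, Lyz2, Cd5l, Timd4, Marco, Plac8, Fpr1, Fpr2) were added after their values were seen. Some genes that this rule picks are not reported here and were left out of the lists. The subunits and lists were chosen with earlier results of these data known. Alternatives were DESeq2 1.42.0 size factors and its Wald test, scaling by library size with and without the 20 most abundant genes, 2 other filters, limma-voom (limma 3.58.1), a replicate block, a fit that was not robust, glmTreat for 2-fold changes, a threshold of 0.01, general leukocyte markers and leaving out each library. List counts, gene length and alternatives for ratios were added after seeing the data. Figures used matplotlib 3.10.9.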

Additional observations from a re-analysis of the deposited data

How the results depend on the processing

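Cybb, Ncf1 and Ncf4 kept their direction and stayed called under all 17 alternatives run, and Rac2 kept its direction in all of them. The Rac2 call was lost with no filter on low counts (2.63, adjusted p = 0.0554), with a replicate block (2.16, adjusted p = 0.0512) and at an adjusted p of 0.01 (2.73). It was also lost without MYC_On replicate 1, 2 or 3 (adjusted p of 0.0619, 0.0627 and 0.0639). Leaving out single libraries gave 1.25 to 3.10 for Rac2 and -0.73 to 0.13 for Cyba, which was not called under any alternative. Against macrophage markers, leaving out libraries gave -0.28 to 0.15 for Rac2. Rac1 turned to -0.40 with library size only, to -0.076 if that size omits the 20 most abundant genes, and to -0.081 without MYC_Off replicate 1 (leave-out range -0.081 to 0.32). Rap1a turned to -0.23 with library size only and -0.041 without MYC_Off replicate 1 (range -0.041 to 0.52). The causes were not tested.

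Over all genes, 4222 were higher and 3221 lower. The counts were 2527 and 5300 with library size only, 2368 and 1889 at an adjusted p of 0.01, 2621 and 1428 against a minimum change of 2-fold, and 2776 to 4317 higher with libraries left out. Called genes were 56.7% higher with TMM, 42.8% with library sizes that omit the 20 most abundant genes and 32.3% when scaled by library size alone, and the median over all genes moved from 0.18 with TMM to -0.56 with library size only. Cybb, Ncf1, Ncf4 and Rac2 stayed higher under each scaling. Same-numbered libraries of the 2 groups did not deviate together (correlations -0.26, -0.17 and 0.04). That check rests on 3 libraries per group and cannot show whether the numbers pair them, so the replicate block is given as an alternative only. With 3 libraries per group no exact permutation test could pass 0.05.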
